A study of Frankliniella occidentalis and Frankliniella intonsa with 9 samples.

Results

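The carboxylesterase family of the antennal transcriptome comprised every assembled gene whose protein domain annotation held COesterase, the Pfam domain shared by carboxylesterases, cholinesterases and their inactive relatives. Of 48889 assembled genes, 106 met this rule. No expression value was used to choose them. The authors sequenced RNA from antennae of adults 1 day old in 9 libraries, 3 of male Frankliniella occidentalis (the western flower thrips), 3 of female Frankliniella intonsa and 3 of female F. occidentalis. The labels give no treatment, strain or allele for any group, and male F. intonsa were not analysed here. Whether a replicate is a single insect or a pool is not stated either. P-values here reflect only how much these libraries vary, and part of that may be technical. Values are TPM, a share of a library's transcripts scaled by transcript length, so levels can be compared between genes.

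Enzymes of this family cut ester bonds with a catalytic serine. In insect antennae, secreted esterases of moths are known to break down ester odorants and pheromones in the fluid around olfactory neurons. Other members clear juvenile hormone, end the signal of the transmitter acetylcholine, or degrade insecticides. Neuroligins, neurotactin and glutactin have the same fold but lack esterase activity, and act in adhesion between cells or in the extracellular matrix.

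Members are assembled genes and not complete loci. They fell into 46 assembly components, groups of sequences that the assembler could not separate fully, and 82 of the 106 shared a component with another member. Listed lengths ran from 213 to 3336 bases with a median of 962. Several members may therefore be parts or alleles of the same gene, or close relatives between which reads can be divided wrongly. None of the 106 matched the RefSeq gene table of F. occidentalis by identifier or accession, so names come from the text of the deposited table.

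Classes were set by wording, first in the annotation text and then in the Swiss-Prot match. By this rule 8 members were antennal or alpha esterases, 14 juvenile hormone esterases, 16 cholinesterases and 10 neuroligins. The rest were 3 members named after neurotactin or glutactin, 12 venom carboxylesterases, 11 named after esterase FE4, E4 or B1, 20 other carboxylesterases and 12 with other or no names. The wording is a loose guide. Of the juvenile hormone esterase class, 3 members were named so in the annotation and 11 only by the Swiss-Prot match, and in the cholinesterase class these numbers were 7 and 9. The KEGG entry for acetylcholinesterase was given to 34 members, of which 6 were in the cholinesterase class.

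Markers of antennae were present in all F. occidentalis libraries and differed widely among the F. intonsa libraries. The summed TPM of 2 genes for the odorant receptor coreceptor Orco, which most insect olfactory receptors need, was 9.72, 23.3 and 16.0 in males, 0.08, 18.4 and 0 in F. intonsa libraries 1, 2 and 3, and 9.16, 16.6 and 16.1 in F. occidentalis females. Genes for odorant-binding proteins, which carry odorants, summed to 887, 2873 and 57.9 TPM in F. intonsa libraries 1, 2 and 3, against 1729 to 2351 TPM in F. occidentalis females. Genes for chemosensory proteins, small soluble carriers, summed to 528, 7089 and 134 TPM in F. intonsa libraries 1, 2 and 3, against 5451 to 7152 TPM in F. occidentalis females. Sensory neuron membrane proteins summed to 89.9, 173 and 188 TPM in males and to 50.2, 43.6 and 79.4 TPM in F. occidentalis females, without overlap. In F. intonsa libraries 1, 2 and 3 they summed to 3.49, 70.5 and 0 TPM. Genes without a database match took 84.3%, 43.7% and 91.6% of TPM in F. intonsa libraries 1, 2 and 3, against 23.0% to 27.9% in the 6 F. occidentalis libraries. F. intonsa libraries 1 and 3 thus had these soluble carriers at lower sums than any F. occidentalis female, and little or no Orco. Values of F. intonsa are given by library for this reason, and a 0 there is called a listing. TPM keeps no read numbers, so the depth behind each value is unknown.

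In F. occidentalis the family was broadly detected and similar in total between the sexes. Of the 106 members, 76 were above 0 in this species and 68 were above 0 in all 6 of its libraries. Their summed TPM was 2067, 2034 and 1755 in males and 1575, 1823 and 2156 in females, and the ranges overlap. This is 0.207% ± 0.0190 of a library in males and 0.193% ± 0.0302 in females (SD, n = 3 each). By their mean over the 6 libraries, 31 members were at 10 TPM or more, 42 between 1 and 10 TPM and 3 below 1 TPM.

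**Figure D1:**
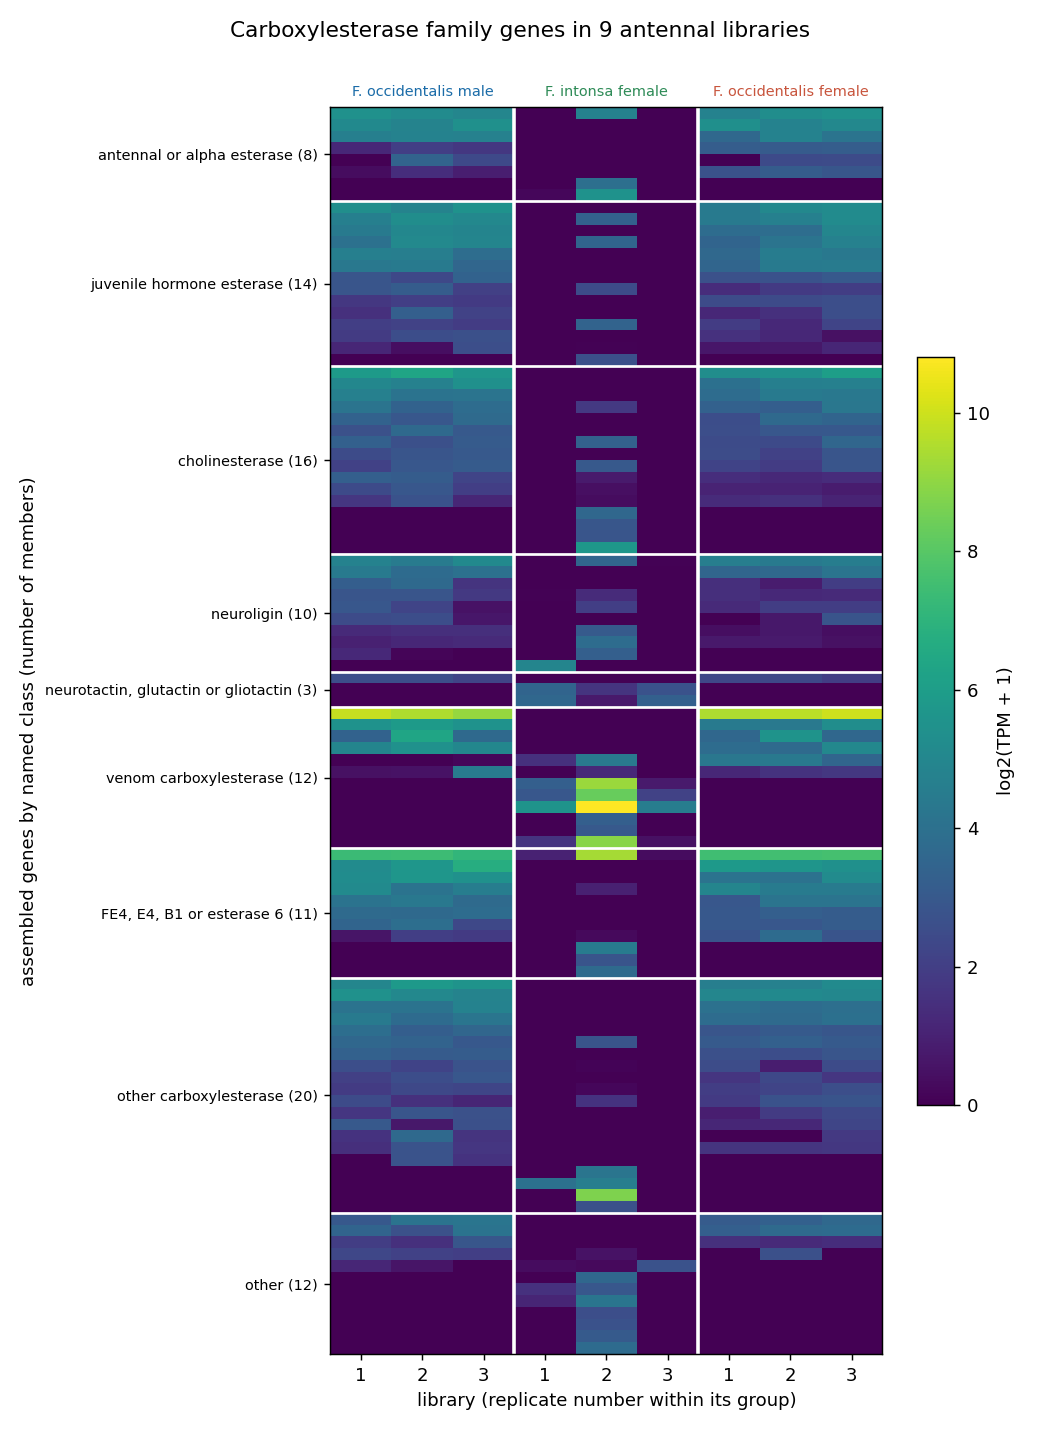
Level of each of the 106 carboxylesterase family genes as log2(TPM + 1), 1 row per gene by named class and 1 column per library, with males, F. intonsa females and F. occidentalis females from left to right. Most rows are filled in all 6 F. occidentalis libraries, and in F. intonsa nearly all signal is in library 2.

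A venom carboxylesterase-6-like gene dominated the family in F. occidentalis. The class is named after an esterase of honey bee venom. TRINITY_DN45176_c1_g2 was at 938, 733 and 552 TPM in males and at 722, 817 and 1019.8 TPM in females. It alone held 37.6% ± 7.10 of the family's TPM in males and 46.0% ± 1.25 in females (SD, n = 3 each). The sexes overlap, with a fitted log2 difference of −0.22 ± 0.29 (SE; limma-trend adjusted p = 0.785), which quantile normalization turned to 0.065. In all F. intonsa libraries it was listed at 0.

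The second most abundant member belonged to the same component. TRINITY_DN45176_c1_g4, annotated as esterase FE4 with venom carboxylesterase-6 as its Swiss-Prot match, was at 163, 168 and 137 TPM in males and at 178, 186 and 196 TPM in females. Every male library was below every female library, but the log2 fold change was small, at −0.26 ± 0.24 (SE; limma-trend adjusted p = 0.667). Esterase FE4 and its relative E4 are insecticide-degrading esterases of the aphid Myzus persicae.

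**Figure D2:**
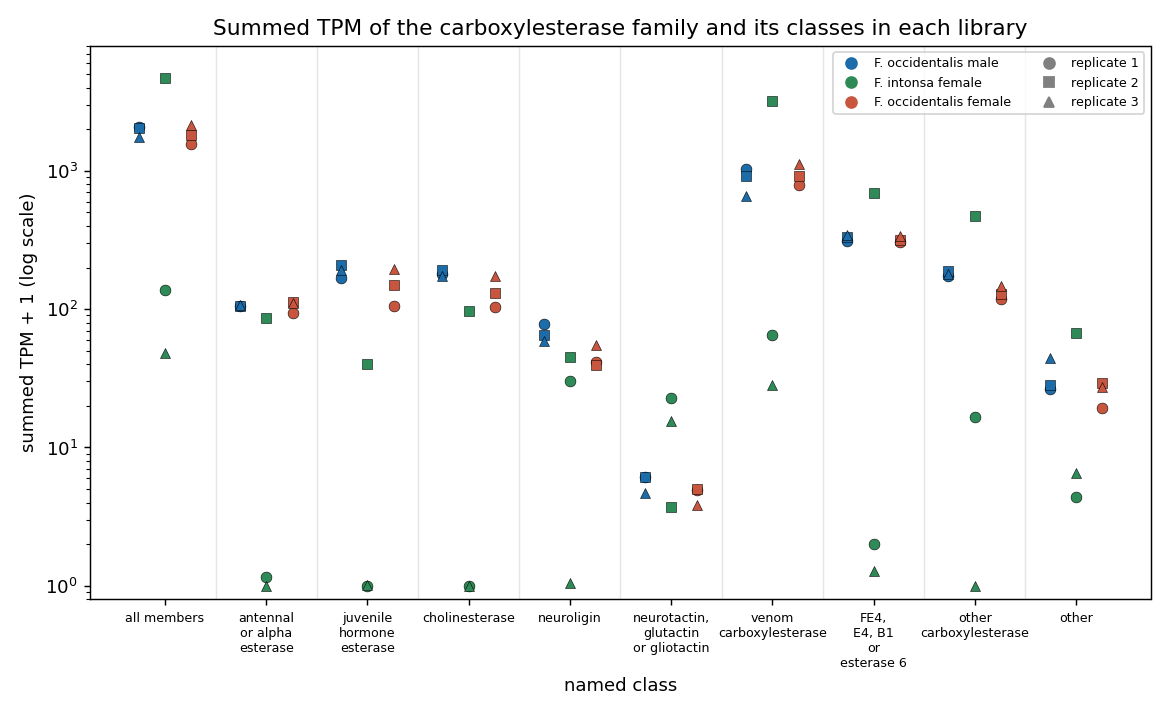
Summed TPM + 1 (log scale) of all members and of each named class, 1 point per library, with colours for the groups and shapes for the replicate number. Venom carboxylesterases hold the largest sum in F. occidentalis and in F. intonsa library 2, and F. intonsa libraries 1 and 3 are at or near 0 in the antennal, juvenile hormone esterase and cholinesterase classes.

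Between the sexes of F. occidentalis, 1 member of the family changed. Of 106 members, 73 passed the filter of at least 1 TPM in at least 3 of the 6 libraries. Among these 73, 0 were higher and 1 was lower in males at an adjusted p of 0.05 (limma-trend on log2(TPM + 1), Benjamini-Hochberg over all 22015 tested genes). That is 1.37% of tested members, against 1.89% of all tested genes (0.968% higher and 0.918% lower in males). The sexes did not overlap in 14 members that were higher in males (19.2%, against 13.3% of all tested genes) and in 6 that were lower (8.22%, against 6.83%), beside 20.1% of all tested genes in either direction. An unadjusted p under 0.05 was reached by 12 members and by 15.5% of all tested genes. The median log2 fold change was 0.31 over the tested members and 0.19 over all tested genes. Quantile normalization brought these medians to 0.15 and −0.02.

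The member that changed was another venom carboxylesterase-6-like gene, TRINITY_DN44505_c0_g2, the longest of the family at 3336 bases. It was at 0, 0 and 0.15 TPM in males and at 18.6, 19.7 and 10.6 TPM in females. Males were nearly without it, and the groups do not overlap. Its log2 fold change was −4.0 ± 0.41 (SE; limma-trend adjusted p = 0.00184) and depends on the pseudocount, since a pseudocount of 0.1 gives −6.86. The call was lost in a fit of all 9 libraries (adjusted p = 0.0629, limma-trend) and without female library 2 on the same set of genes (adjusted p = 0.0520). The spread in the fit of 9 takes in F. intonsa values of 1.81, 19.9 and 0 TPM, and the SE there was 0.91. Under the filter applied again to 5 libraries the gene could not be tested without any one of the female libraries.

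Genes listed as fat body markers were also lower in males. Fat body makes yolk proteins and other blood proteins of insects. The summed TPM of 62 genes annotated as vitellogenin, hexamerin or apolipophorin was 88.3, 156 and 86.9 in males and 10484, 12465 and 6664 in females. Of the 44 tested, 35 were lower in males and 0 higher (limma-trend, 38 at an unadjusted p under 0.05). That is 79.5% lower, against 0.918% of all tested genes. The list pools the yolk protein vitellogenin with the others, so its sum cannot separate yolk protein expression of females from the amount of fat body. In F. intonsa females these markers summed to 47.2, 1996 and 8.49 TPM in libraries 1, 2 and 3, and TRINITY_DN44505_c0_g2 was at 1.81, 19.9 and 0 TPM there. Fat body was not the only list with lower values in males. The gut marker was at 0.18, 0 and 0 TPM in males and at 10.5, 14.35 and 1.36 TPM in females. Ovary markers summed to 4.11, 3.87 and 2.96 TPM in males and to 11.2, 14.4 and 8.75 TPM in females. Gland and neuronal markers had median log2 fold changes above 0, at 0.59 and 0.72. The part of fat body or other tissue RNA in the result for TRINITY_DN44505_c0_g2 was not tested. In bulk samples fewer cells of a type and less RNA per cell cannot be told apart.

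**Figure D3:**
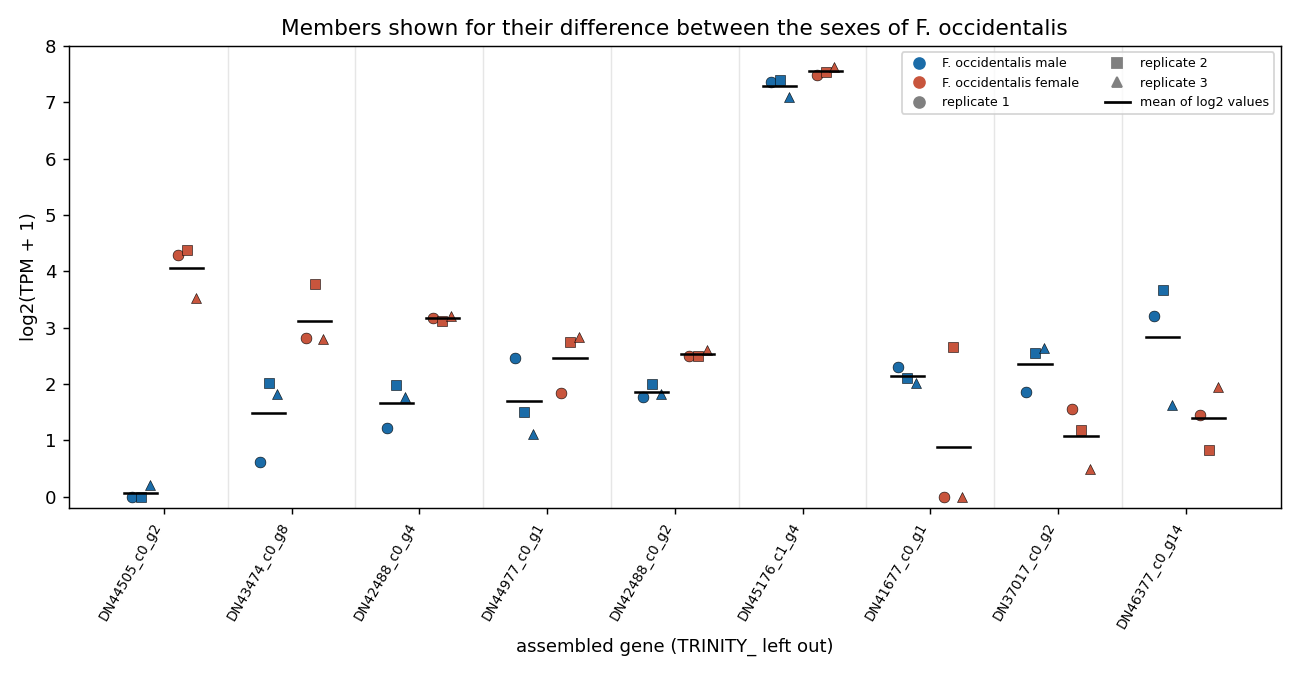
Level as log2(TPM + 1) of the 9 members shown for their difference between male (blue) and female (red) F. occidentalis, ordered by log2 fold change from lower to higher in males. Points are libraries with shapes for the replicate number and bars are means of 3; TRINITY_DN44505_c0_g2 at the left is the only one past the threshold.

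Antennal and alpha esterases are the class closest to odorant-degrading enzymes of moths. In F. occidentalis 6 of the 8 members were above 0, with a summed TPM of 104, 105 and 106 in males and of 92.8, 112 and 111 in females. Alpha-esterase matches led the class. TRINITY_DN43172_c0_g1 was at 36.4 ± 6.54 TPM in males and 36.1 ± 8.12 in females, and TRINITY_DN40398_c0_g8 at 34.9 ± 7.26 in males and 33.0 ± 7.01 in females (SD, n = 3 each). TRINITY_DN44895_c0_g2, a putative alpha-esterase, was at 25.7 ± 1.15 TPM in males and 18.3 ± 7.61 in females (SD, n = 3 each). In all of these 3 genes the sexes overlap.

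A pair of low genes had lower values in every male library than in any female library. TRINITY_DN42488_c0_g4, an alpha-esterase in the annotation with juvenile hormone esterase as its Swiss-Prot match, was at 1.32, 2.97 and 2.40 TPM in males and at 8.06, 7.70 and 8.20 TPM in females. The groups do not overlap. Its log2 fold change was −1.51 ± 0.37 (SE) and missed the threshold (limma-trend adjusted p = 0.0789). It passed after rescaling over genes with a database match (adjusted p = 0.0461) and with all 9 libraries in the fit (adjusted p = 0.0286, limma-trend). The fit of 9 takes in F. intonsa values that are all 0 in this gene, and its SE was 0.26 at the same log2 fold change. Other alternatives did not pass, with an adjusted p (limma-trend) of 0.137 with a replicate block and 0.163 without a filter. Without 1 female library it was 0.238 to 0.268. A neighbour of the same component in the juvenile hormone esterase class, TRINITY_DN42488_c0_g2, was at 2.41, 3.02 and 2.53 TPM in males and at 4.62, 4.62 and 5.07 TPM in females. This second gene also did not overlap between the sexes and did not pass (log2 fold change −0.66 ± 0.36 SE, adjusted p = 0.434, limma-trend).

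Both genes named after antennal carboxylesterases of the moth Chilo suppressalis were low. TRINITY_DN52313_c0_g1, matched to antennal carboxylesterase 5, was at 0.30, 1.65 and 0.90 TPM in males and at 5.55, 7.91 and 6.44 TPM in females. It is named after its values were seen, because its groups do not overlap and it passed in the same 2 alternatives (adjusted p = 0.0334 and 0.0243, limma-trend). In the chosen fit its log2 fold change of −2.02 ± 0.45 (SE) missed the threshold (adjusted p = 0.0630, limma-trend). Its F. intonsa values are also all 0, and the SE was 0.33 with all 9 libraries. Other alternatives did not pass, with an adjusted p (limma-trend) of 0.0843 with a replicate block, 0.101 with a pseudocount of 0.1 and 0.131 without a filter. Without 1 female library it was 0.198 to 0.297. TRINITY_DN44429_c1_g7, matched to antennal carboxylesterase 2 and given to complete the pair, was at 0, 9.93 and 4.22 TPM in males and at 0, 4.38 and 4.56 TPM in females. It was listed at 0 in replicate 1 of both sexes.

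Of the antennal and alpha esterases, 0 of 6 tested passed the threshold between the sexes with limma-trend, 0 with limma without trend, and 2 had an unadjusted p under 0.05. In F. intonsa the class summed to 0.15, 85.6 and 0 TPM in libraries 1, 2 and 3. TRINITY_DN40398_c0_g1, an alpha-esterase match in the component of TRINITY_DN40398_c0_g8, was at 0.15, 44.7 and 0 TPM in these libraries and at 0 in all F. occidentalis libraries. Its neighbour TRINITY_DN40398_c0_g8 was listed at 0 throughout F. intonsa. TRINITY_DN43172_c0_g1 was at 0, 26.5 and 0 TPM in F. intonsa, against 27.1, 38.5 and 42.8 TPM in F. occidentalis females. Summed over its members, the component TRINITY_DN40398_c0 was at 0.15, 44.7 and 0 TPM in F. intonsa and at 40.6, 26.7 and 31.8 TPM in F. occidentalis females.

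Juvenile hormone esterases inactivate juvenile hormone by cutting its methyl ester. The class of that name summed to 168, 207 and 191 TPM in males and to 105, 149 and 194 TPM in females of F. occidentalis. Its 3 most abundant members were TRINITY_DN40734_c0_g3, TRINITY_DN43522_c1_g2 and TRINITY_DN43522_c1_g7. They were at 37.5 ± 9.11, 31.6 ± 7.10 and 26.7 ± 5.53 TPM in males and at 29.7 ± 7.60, 27.2 ± 8.26 and 19.0 ± 9.99 TPM in females (SD, n = 3 each). TRINITY_DN43522_c1_g7 was the only one of these named juvenile hormone esterase in both texts. The sexes overlap in all 3.

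Some lower members of the class showed larger differences, without passing the threshold. TRINITY_DN37017_c0_g2, annotated as esterase B1-like with a juvenile hormone esterase match, was at 2.63, 4.84 and 5.27 TPM in males and at 1.93, 1.28 and 0.41 TPM in females, without overlap. Its log2 fold change was 1.27 ± 0.51 (SE; limma-trend adjusted p = 0.268). TRINITY_DN42154_c0_g3 was at 6.25, 7.89 and 3.15 TPM in males and at 1.59, 2.54 and 2.86 TPM in females, also without overlap. The log2 fold change of this gene was 0.97 ± 0.43 (SE; limma-trend adjusted p = 0.323). The gene annotated as a termite juvenile hormone esterase, TRINITY_DN44063_c0_g2, was low, at 1.27, 0.33 and 5.14 TPM in males and 0.57, 0.63 and 1.24 TPM in females. The sexes overlap in TRINITY_DN44063_c0_g2. It is named after its values were seen, as 1 of the 3 members with this name in the annotation.

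Of the juvenile hormone esterases, 0 of 13 tested passed between the sexes with limma-trend, 0 with limma without trend, and 1 had an unadjusted p under 0.05. Among 24 other genes of juvenile hormone metabolism and response, mostly farnesol dehydrogenases, 17 were tested and 0 passed in either direction (limma-trend; 0 without trend; 2 at an unadjusted p under 0.05). Their median log2 fold change was −0.19. In F. intonsa the esterase class summed to 0, 38.8 and 0.02 TPM in libraries 1, 2 and 3. TRINITY_DN43522_c1_g15, annotated as juvenile hormone esterase-like, was at 0, 10.2 and 0 TPM there, against 10.1, 16.9 and 25.8 TPM in F. occidentalis females. TRINITY_DN40734_c0_g2 was at 0, 9.80 and 0 TPM in F. intonsa and at 2.84, 1.4 and 3.70 TPM in F. occidentalis females, so library 2 was above all females of the other species and libraries 1 and 3 were below them.

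Acetylcholinesterase breaks down acetylcholine at synapses and is the target of organophosphate and carbamate insecticides. The ace1-type gene, TRINITY_DN36982_c0_g1, was low, at 2.29, 5.57 and 1.22 TPM in males and at 1.51, 1.82 and 1.13 TPM in females. The sexes overlap, with a fitted log2 difference of 0.56 ± 0.56 (SE; limma-trend adjusted p = 0.705). In F. intonsa libraries 1, 2 and 3 it was at 0, 0.30 and 0 TPM, against 1.13 to 1.82 TPM in F. occidentalis females. It is named after its values were seen and does not stand for the other members with acetylcholinesterase wording, which are not all given.

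Other members with cholinesterase wording were more abundant. TRINITY_DN45041_c1_g1 was at 58.8, 81.6 and 50.1 TPM in males and at 38.1, 43.9 and 65.0 TPM in females. Its annotation text names an odorant-binding protein of F. occidentalis, while its domain and its Swiss-Prot match are of the esterase family. TRINITY_DN46330_c0_g3 was at 31.4, 25.6 and 42.6 TPM in males and at 14.9, 24.5 and 25.1 TPM in females, without overlap (log2 fold change 0.61 ± 0.33 SE, limma-trend adjusted p = 0.428). TRINITY_DN41299_c0_g4 was at 19.6 ± 4.92 TPM in males and 17.5 ± 3.77 in females (SD, n = 3 each). All 3 were listed at 0 in F. intonsa.

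Of the cholinesterase class, 0 of 12 tested passed between the sexes with limma-trend, 0 with limma without trend, and 2 had an unadjusted p under 0.05. Every male library was above every female library for 3 of the 12 (25%, against 13.3% of all tested genes). All 12 fitted log2 fold changes were above 0, as were 13742 of all 22015 tested genes. The median was 0.33 in the class and 0.19 over all tested genes. Quantile normalization took 4 of the 12 below 0, among them TRINITY_DN41299_c0_g4 (−0.0062) and TRINITY_DN46072_c0_g6, a cholinesterase 2 match (−0.087). Other cholinergic genes, such as acetylcholine receptors and choline transporters, had 0 of 23 tested past the threshold (limma-trend, 0 without trend, 6 at an unadjusted p under 0.05). Of their fitted values 22 were above 0, with a median of 0.54 beside the 0.19 of all tested genes. General neuronal markers summed to 169, 199 and 98.6 TPM in males and to 69.5, 94.1 and 93.6 TPM in females over 16 genes, with no overlap, and 0 of 12 tested passed (limma-trend; 0 without trend; 3 at an unadjusted p under 0.05). The part of neuronal RNA in these values was not tested.

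In F. intonsa the cholinesterase class was above 0 only in library 2, where it summed to 96.2 TPM. Its most abundant member there, TRINITY_DN44673_c0_g4, was at 52.1 TPM and is annotated as venom carboxylesterase-6 with an acetylcholinesterase match. TRINITY_DN46330_c0_g5 followed at 11.1 TPM. Both were at 0 in F. occidentalis. TRINITY_DN46072_c0_g6 was at 0, 9.26 and 0 TPM in F. intonsa and at 4.61, 4.32 and 11 TPM in F. occidentalis females. TRINITY_DN41677_c1_g15 was at 0, 7.18 and 0 TPM in F. intonsa and at 3.53, 2.74 and 6.18 TPM in F. occidentalis females.

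Neuroligins are adhesion proteins of the postsynaptic membrane that bind neurexins. The class summed to 77.4, 63.9 and 57.6 TPM in males and to 40.4, 38.7 and 54.1 TPM in females of F. occidentalis, and the sexes do not overlap. Most of this came from genes whose Swiss-Prot match was an enzyme. TRINITY_DN45084_c0_g2, matched to a liver carboxylesterase, was at 27.2 ± 6.17 TPM in males and 22.4 ± 2.01 in females, and TRINITY_DN46377_c1_g1, matched to carboxylesterase 3, at 16.4 ± 4.27 in males and 13.1 ± 3.55 in females (SD, n = 3 each). Both overlap between the sexes.

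Members of the component TRINITY_DN46377_c0, where 4 of 5 matched neuroligins in both texts, were low in F. occidentalis. Summed over its 5 members the component was at 21.6, 26 and 8.34 TPM in males and at 4.46, 4.05 and 11 TPM in females. The sum was high in males 1 and 2, while male 3 was below female 3. TRINITY_DN46377_c0_g14, the member without a Swiss-Prot match, was at 8.28, 11.8 and 2.10 TPM in males and at 1.72, 0.77 and 2.87 TPM in females (log2 fold change 1.44 ± 0.59 SE, limma-trend adjusted p = 0.287). TRINITY_DN46377_c0_g8 was at 1.43, 1.77 and 1.75 TPM in males and at 0.33, 0.60 and 0.34 TPM in females, without overlap and without passing (adjusted p = 0.596, limma-trend).

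Of the neuroligin class, 0 of 8 tested passed between the sexes with limma-trend, 0 with limma without trend, and 2 had an unadjusted p under 0.05. All 8 fitted values were above 0, with a median of 0.61 beside the 0.19 of all tested genes, and quantile normalization took 1 of them below 0. Neurexins, the partners of neuroligins, had 2 genes tested and 0 past the threshold (limma-trend; 0 without trend; 0 at an unadjusted p under 0.05).

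Neuroligins also appeared in F. intonsa, in different libraries. TRINITY_DN46377_c0_g5, annotated as neuroligin-4, was at 0, 13.3 and 0 TPM in F. intonsa and at 0.69, 0.70 and 0.42 TPM in F. occidentalis females. TRINITY_DN46377_c0_g8 was at 0, 7.26 and 0 TPM in F. intonsa. TRINITY_DN39493_c2_g8, a neuroligin-1-like fragment of 260 bases, was at 29.4, 0 and 0 TPM there, and at 0 in all F. occidentalis libraries. It was 1 of 4 members of the family whose highest F. intonsa value was outside library 2.

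Neurotactin, an adhesion protein of the Drosophila nervous system, made up another pair of these 4. TRINITY_DN45937_c0_g4 was at 11.4, 0.66 and 8.84 TPM in F. intonsa libraries 1, 2 and 3, and TRINITY_DN45937_c0_g6 at 10.3, 2.08 and 5.59 TPM. Both were listed at 0 in F. occidentalis. They were highest in the libraries in which nearly all other members were at or near 0. Glutactin, a basement membrane protein of Drosophila, was the Swiss-Prot match of TRINITY_DN42279_c1_g1, at 4.65 ± 0.820 TPM in males and 3.62 ± 0.652 in females of F. occidentalis (SD, n = 3 each) and at 0 in F. intonsa. The single tested gene of this class in the sex comparison, the glutactin match, did not pass (limma-trend adjusted p = 0.771; 0 without trend; unadjusted p = 0.442).

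Some venom carboxylesterases of F. occidentalis had single libraries far from the rest. TRINITY_DN45290_c0_g1 was at 9.46, 80.4 and 11.8 TPM in males and at 11.3, 46.0 and 11.3 TPM in females. Replicate 2 was several times above the others in both sexes, and the labels do not say whether a number marks a shared batch. TRINITY_DN40768_c0_g1, named after its values were seen because 1 library decides its mean, was at 0.41, 0.45 and 21.5 TPM in males and at 1.32, 2.03 and 2.40 TPM in females. TRINITY_DN43833_c0_g3 was at 44.8, 58.8 and 44.1 TPM in males and at 21.1, 19.7 and 38.6 TPM in females, without overlap (log2 fold change 0.92 ± 0.33 SE, limma-trend adjusted p = 0.210). Its neighbour TRINITY_DN43833_c0_g10, annotated as esterase E4-like, was at 37.5, 50.3 and 42.9 TPM in males and at 16.6, 15.7 and 36.4 TPM in females (adjusted p = 0.222). In both genes female 3 was closest to the males. Of 6 tested venom carboxylesterases, TRINITY_DN44505_c0_g2 alone passed between the sexes (limma-trend; 1 without trend), while an unadjusted p under 0.05 was found for 3.

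Members named after FE4, E4 and B1 had a summed TPM of 312, 333 and 342 in males and of 307, 317 and 335 in females. Besides TRINITY_DN45176_c1_g4 the most abundant was TRINITY_DN43474_c0_g2, at 35.9, 49.8 and 107 TPM in males and at 56.5, 48.6 and 42.0 TPM in females. Its neighbour TRINITY_DN43474_c0_g8 was at 0.53, 3.05 and 2.55 TPM in males and at 6.04, 12.6 and 5.95 TPM in females, without overlap. Its log2 fold change was −1.64 ± 0.50 (SE; limma-trend adjusted p = 0.148). Summed over the component, which has 7 members, the value was 0.20. Of this class 0 of 8 tested passed between the sexes with limma-trend, 0 without trend, and 2 had an unadjusted p under 0.05.

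The remaining carboxylesterases were spread over low and middle levels. TRINITY_DN43703_c0_g1, TRINITY_DN46330_c0_g11 and TRINITY_DN45084_c0_g3 led them, at 43.5 ± 12.8, 34.5 ± 8.13 and 20.0 ± 6.15 TPM in males and 28.6 ± 6.08, 31.7 ± 2.03 and 14.4 ± 1.08 TPM in females (SD, n = 3 each). TRINITY_DN45084_c0_g3 was higher in every male library, with a log2 fold change of 0.41 ± 0.31 (SE; limma-trend adjusted p = 0.589). TRINITY_DN44977_c0_g1 was among the members with the largest lower values in males, at 4.52, 1.85 and 1.17 TPM in males and 2.59, 5.68 and 6.10 TPM in females, and the sexes overlap. Of 15 tested, 0 passed (limma-trend; 0 without trend; 0 at an unadjusted p under 0.05).

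Members with other or no names were low in F. occidentalis. TRINITY_DN43711_c0_g1 was at 13.6 ± 5.75 TPM in males and 9.49 ± 2.05 in females, TRINITY_DN41299_c0_g2 at 10.7 ± 5.60 in males and 11.3 ± 2.28 in females, and TRINITY_DN44063_c0_g8 at 3.71 ± 2.39 in males and 1.65 ± 0.201 in females (SD, n = 3 each). TRINITY_DN41677_c0_g1 was at 3.92, 3.31 and 3.03 TPM in males and at 0, 5.31 and 0 TPM in females, so a single female library was above the males. Of 4 tested, 0 passed between the sexes (limma-trend; 0 without trend; 0 at an unadjusted p under 0.05).

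In F. intonsa the family was dominated by assembled genes listed at 0 in the F. occidentalis columns, and nearly all of it was in library 2. Whether such entries are separate genes, or the same gene assembled apart in each species, was not tested. Of the 106 members, 60 were above 0 in F. intonsa. Among these, 41 were above 0 in library 2 alone, 8 in all 3 libraries, and 56 had their highest value in library 2. The summed TPM was 136, 4712 and 47.6 in libraries 1, 2 and 3, or 0.0138%, 0.491% and 0.00482% of each library, against 1575 to 2156 TPM in F. occidentalis females. The sum of library 2 was above every library of F. occidentalis and the sums of libraries 1 and 3 were below all of them.

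Venom carboxylesterase-6-like genes led F. intonsa as they led F. occidentalis, but from other assembled genes. TRINITY_DN44673_c0_g2 was the top member in each F. intonsa library, at 45.4, 1799 and 22.7 TPM, which is 33.4%, 38.2% and 47.7% of the family there. TRINITY_DN44673_c0_g3 was at 8.55, 580 and 0.74 TPM. All 4 members of this component were listed at 0 in F. occidentalis, and together they were at 56.0, 2908 and 23.9 TPM in F. intonsa libraries 1, 2 and 3.

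The component that held the dominant F. occidentalis gene was shared between the species. Its 4 members divided as follows. TRINITY_DN45176_c1_g2 was above 0 in F. occidentalis alone, TRINITY_DN45176_c1_g1 and TRINITY_DN45176_c1_g3 in F. intonsa alone, and TRINITY_DN45176_c1_g4 in both. TRINITY_DN45176_c1_g3 was at 0, 418 and 0 TPM in F. intonsa. TRINITY_DN45176_c1_g4 was at 1.02, 654 and 0.28 TPM in F. intonsa and at 178, 186 and 196 TPM in F. occidentalis females. Summed over the 4 members, the component was at 7.73, 1389 and 3.67 TPM in F. intonsa and at 899, 1003 and 1216 TPM in F. occidentalis females. Library 2 of F. intonsa was thus above the 3 females of F. occidentalis and the other libraries far below.

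**Figure D4:**
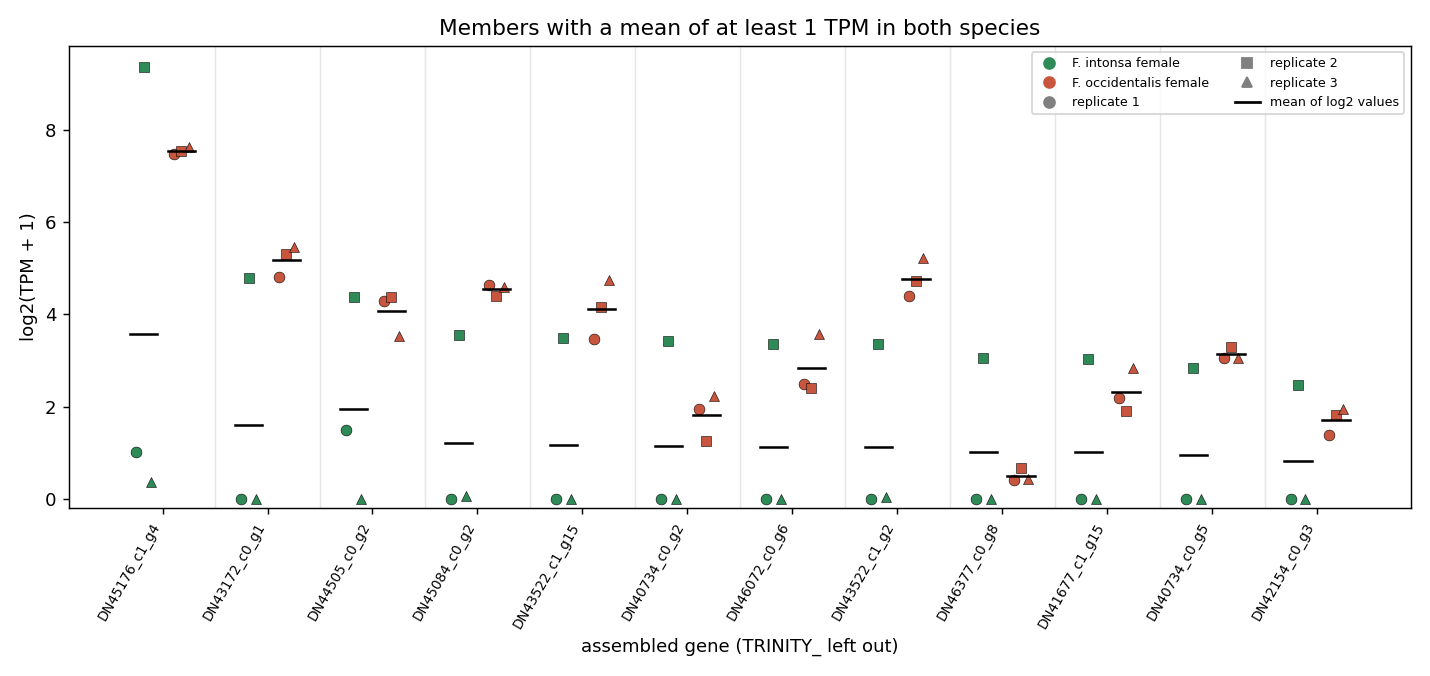
Level as log2(TPM + 1) of the 12 members averaging 1 TPM or more in F. intonsa and over all 6 F. occidentalis libraries, in F. intonsa females (green) and F. occidentalis females (red), ordered by F. intonsa library 2. Points are libraries with shapes for the replicate number and bars are means of 3; F. intonsa libraries 1 and 3 are at or near 0 in most of these genes, while library 2 lies above some and below other F. occidentalis values.

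Between the females of the species, 55 of 64 tested members were called. Of these, F. intonsa had higher values in 3 and lower values in 52 (limma-trend on log2(TPM + 1), adjusted over 21231 tested genes). That is 85.9% of tested members, near the background of 85.4% of all tested genes. Groups did not overlap in 3 higher and 51 lower members, beside 86.6% of all tested genes (17.5% higher and 69.2% lower), and 56 members and 86% of all tested genes had an unadjusted p under 0.05. The F. occidentalis females are the same libraries as in the sex comparison. The share called lower was 81.2% (all tested genes 68.3%) and the share called higher 4.69% (all tested genes 17.1%). For 42 of the 55 called members every library of one species held a 0, so these get no fold change. Among all genes called this held for 14835 of 18127. After quantile normalization 37 members passed (57.8%, against 52% of all tested genes), 7 higher (10.9%, against 21.4%) and 30 lower (46.9%, against 30.7%). Among these 7 were TRINITY_DN44063_c0_g8 and TRINITY_DN36982_c0_g1, whose TPM was lower in every F. intonsa library than in every F. occidentalis female. The first was at 0 in all F. intonsa libraries and at 1.84, 1.44 and 1.68 TPM in F. occidentalis females. A call of higher under this setting therefore does not show a higher TPM. A member seen in F. intonsa library 2 alone could not pass the filter, whereas a member seen in the 3 F. occidentalis females alone could.

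The 3 members on the higher side in F. intonsa were TRINITY_DN44673_c0_g2, the neurotactin TRINITY_DN45937_c0_g6 and TRINITY_DN45176_c1_g1. All were listed at 0 in F. occidentalis females and passed the filter only through F. intonsa, so they are given as present in one species' columns, with no p-value. TRINITY_DN45176_c1_g1, annotated as venom carboxylesterase-6-like, was at 6.71, 317 and 3.39 TPM in F. intonsa and is named here because it is 1 of these 3, after its values were seen. It was not called by limma without trend, without a filter, without F. intonsa library 1 or without any one F. occidentalis female. With a filter of 5 TPM it could not be tested. With TPM summed by component, 23 of 40 tested components with members passed (57.5%, against 54.3% of all tested components), 3 higher (7.5%, against 16.5%) and 20 lower (50%, against 37.8%) in F. intonsa. The 3 higher were TRINITY_DN44673_c0, TRINITY_DN45937_c0 and TRINITY_DN46377_c0. Of these, TRINITY_DN44673_c0 and TRINITY_DN45937_c0 were at 0 in all F. occidentalis libraries. They passed the filter only through F. intonsa, so their direction was fixed beforehand. TRINITY_DN46377_c0 has 9 genes of which 5 are members. Its members alone summed to 0.06, 22.1 and 0 TPM in F. intonsa and to 4.46, 4.05 and 11 TPM in F. occidentalis females. The component of TRINITY_DN45176_c1_g1 was on the other side and did not pass (log2 fold change −4.55 ± 2.18 SE, limma-trend adjusted p = 0.132).

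Among the 30 members above 0 in both species, library 2 of F. intonsa lay on both sides of the F. occidentalis females. It was above all 3 females in 10 members (33.3%, against 40.6% of the 9928 genes above 0 in both species) and below all 3 in 15 (50%, against 35%). With F. intonsa libraries 1 and 3 left out, so that library 2 stood alone and was taken to vary as the other libraries do, 48 members passed (75%, against 77.4% of all tested genes; limma-trend on the same 64 members). Of these 4 were higher (6.25%, against 21%) and 44 lower (68.8%, against 56.4%). The added member on the higher side was TRINITY_DN45176_c1_g4. The 3 called higher in the full fit were at 0 in all F. occidentalis libraries. Of the 55 members called there, 42 were at 0 throughout one species (14835 of 18127 among all genes called). Such members entered the filter through the other species alone, so their direction was fixed beforehand. A single F. intonsa library has no spread of its own, so these counts cannot show a difference between the species.

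For members above 0 in both species the F. intonsa mean hid this split. TRINITY_DN45084_c0_g2, the most abundant member of the neuroligin class, was at 0, 10.7 and 0.05 TPM in F. intonsa and at 24.0, 20.2 and 23.1 TPM in F. occidentalis females (log2 fold change −3.34 ± 1.03 SE, limma-trend adjusted p = 0.0250). This call was lost without any one library except F. intonsa library 2 (adjusted p from 0.0610 to 0.0696), after rescaling over genes with a database match (0.0528) and with quantile normalization (0.197, limma-trend). TRINITY_DN43522_c1_g2 was at 0, 9.18 and 0.02 TPM in F. intonsa and at 20.0, 25.3 and 36.2 TPM in F. occidentalis females, with a log2 fold change of −3.65 ± 1.0 (SE; limma-trend adjusted p = 0.0164). It was lost without F. occidentalis female 2 (0.0513) or 3 (0.0588), with TPM summed by component (0.110) and with quantile normalization (0.0951, limma-trend). TRINITY_DN40734_c0_g5 was at 0, 6.11 and 0 TPM in F. intonsa and at 7.33, 8.82 and 7.34 TPM in F. occidentalis females, without overlap. Its call (adjusted p = 0.04999, limma-trend) was lost in 11 alternatives and kept in 5. The call of TRINITY_DN43522_c1_g15 (adjusted p = 0.0425, limma-trend) was lost in 10 and kept in 6. TRINITY_DN42154_c0_g3 was at 0, 4.50 and 0 TPM in F. intonsa and at 1.59, 2.54 and 2.86 TPM in F. occidentalis females.

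Further members with signal in F. intonsa had none in F. occidentalis. TRINITY_DN43711_c0_g2, an esterase FE4 match, was at 0, 21.6 and 0 TPM, and TRINITY_DN46330_c0_g9 at 1.20, 17.3 and 0 TPM. TRINITY_DN43703_c0_g7, a carboxylesterase-like match to a locust, was at 15.5, 23.9 and 0 TPM, the only member besides the neuroligin fragment with a library 1 value this high outside the venom class. TRINITY_DN46330_c0_g1 was at 0, 12.7 and 0.02 TPM. In all, 16 members listed at 0 in F. occidentalis had at least 10 TPM in F. intonsa library 2.

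Other genes of the pathways were also mostly called lower in F. intonsa. Of 17 tested juvenile hormone genes 1 was higher and 15 were lower, and of 19 tested cholinergic genes 0 were higher and 14 lower (limma-trend). These are 94.1% and 73.7% of the tested genes of each list, beside 85.4% of all tested genes. Of the genes called, one species was at 0 throughout in 11 of the first list and in 9 of the second. Members not given one by one had means of up to 26.9 TPM in F. occidentalis. Their highest value in F. intonsa was 477 TPM, in library 2.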

How the data were processed

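RNA from antennae was sequenced in 9 libraries. Per the labels' protocols, cDNA was made by SMARTer template switching and PCR. The submitters' processing notes name FastQC, cutadapt and Salmon, without versions. No source used here names the assembler or the annotation release. The deposited file is a single table of TPM with gene names and lengths. That unit was inferred from its column totals (935518 to 987791) and from Salmon. The smallest row maximum was 5.01 TPM, so low genes are absent.

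Computed here (R 4.3.3, limma 3.58.1, Python 3.11.15, pandas 2.3.3, numpy 2.4.6, matplotlib 3.10.9) was limma-trend on log2(TPM + 1). The filter was 1 TPM in 3 libraries of the comparison, the threshold an adjusted p of 0.05, and no covariate was used. Folds are male minus female and F. intonsa minus F. occidentalis, and understate low genes. The fit was tested on simulated data. Classes follow wording, where "antennal carboxylesterase" counts as antennal esterase.

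Members given by rule were those past the threshold between sexes, the top 3 (F. occidentalis) and top 2 (F. intonsa) of each class, the 5 largest rises and falls per comparison with 1 TPM in both groups, and those with 1 TPM in both species. Some members that meet this rule are not reported here, though counts include them. Members and lists were chosen with earlier results of these data known. Marker lists not tested in the report (Orco, odorant-binding, chemosensory and sensory neuron membrane proteins, eye, muscle, gut, ovary, gland) had 0 genes past the threshold between the sexes (limma-trend; 0 without trend; 0 to 6 per list at an unadjusted p under 0.05). Of the 6 sensory neuron membrane proteins tested, 3 were higher in males without overlap (50%, against 13.3% of all tested genes). Their median log2 fold change was 1.16.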

Additional observations from a re-analysis of the deposited data

How the results depend on the processing

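Between the sexes the count of members past the threshold was 1 in most alternatives, 3 after rescaling over genes with a database match, 2 with all 9 libraries in 1 fit and 2 with TPM summed by component, where 1 was higher in males. It ran from 0 to 1 when 1 library was left out, and was 0 without any one female library, because the filter then removes the gene. All genes past the threshold between the sexes numbered 271 with a pseudocount of 0.1, 116 without a filter, 207 with quantile normalization (65 higher and 142 lower, against 213 and 202), 198 without trend, and 18 to 285 with 1 library left out. On the genes of the full filter they numbered 160, 273 and 180 without male 1, 2 or 3 and 86, 76 and 119 without female 1, 2 or 3. Between species the members past the threshold were 23 summed by component and ran from 3 to 61 with 1 library left out, or from 48 to 64 on the genes of the full filter. The lowest counts came without an F. occidentalis female, when the filter left 19 members. All genes past it numbered 9243 with a filter of 5 TPM, 11047 with quantile normalization (4538 higher, 6509 lower), 10039 after rescaling, 6081 by component, and 3346 to 16126 with 1 library left out. Settings that leave out a library on the genes of the full filter, and the fit without F. intonsa libraries 1 and 3, were added after seeing the data.

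Quantile normalization moved the median of all tested genes from 0.19 to −0.02 (sex) and from −2.35 to −0.20 (species). It turned small log2 fold changes between the sexes in TRINITY_DN40398_c0_g8 (−0.054), TRINITY_DN40734_c0_g2 (−0.091), TRINITY_DN40734_c0_g5 (−0.0076), TRINITY_DN41299_c0_g4 (−0.0062), TRINITY_DN42279_c1_g1 (−0.043), TRINITY_DN43172_c0_g1 (−0.088), TRINITY_DN45176_c1_g2 (0.065), TRINITY_DN46072_c0_g6 (−0.087) and TRINITY_DN46330_c0_g11 (−0.016). Between species it turned TRINITY_DN40734_c0_g2 (1.07), TRINITY_DN41677_c1_g15 (0.65), TRINITY_DN42154_c0_g3 (0.70), TRINITY_DN44977_c0_g1 (0.11) and TRINITY_DN46072_c0_g6 (0.42). All of these were listed at 0 in F. intonsa libraries 1 and 3, so the turned signs do not show a higher TPM there. TRINITY_DN44977_c0_g1 was at 0, 2.01 and 0 TPM in F. intonsa, below the 2.59, 5.68 and 6.10 TPM of F. occidentalis females. Summing by component turned TRINITY_DN40398_c0_g8 (−0.20), TRINITY_DN41299_c0_g2 (0.058), TRINITY_DN42279_c1_g1 (−0.19) and TRINITY_DN43474_c0_g8 (0.20), since other genes of the component enter the sum. With 1 library left out, sex differences that changed sign ranged from −0.069 to 0.23 (TRINITY_DN40398_c0_g8), −0.055 to 0.43 (TRINITY_DN40734_c0_g2), −0.53 to 0.20 (TRINITY_DN41299_c0_g2), −0.041 to 0.25 (TRINITY_DN41299_c0_g4), −0.17 to 0.15 (TRINITY_DN43172_c0_g1), −0.20 to 0.58 (TRINITY_DN43474_c0_g2), −0.73 to 0.85 (TRINITY_DN45290_c0_g1), −0.020 to 0.56 (TRINITY_DN46072_c0_g6) and −0.075 to 0.24 (TRINITY_DN46330_c0_g11). For the other turned values the cause was not tested.

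Same-numbered libraries did not deviate together (correlations of −0.035 to 0.050 between sexes and −0.055 to 0.027 between species), and not every library correlated best with its own number. With the replicate number as a block, 1 member passed between the sexes and 56 between species, and 363 and 18104 of all genes. Read numbers are unknown, so what depth limits could not be assessed.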
